A study of Mus musculus with 3 samples.

Results

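The genes of the actin cytoskeleton and of muscle contraction were examined in kidneys of mice 1 day after an injected antibody against the glomerular basement membrane (GBM). Members were the table rows whose annotation names 1 gene of the actins, actin-related proteins, myosin heavy and light chains, unconventional myosins, tropomyosins, troponins, transgelins, calponins, cofilins, profilins, thymosins, leiomodins, smoothelins or filamins, or of the Arp2/3 subunits, capping and severing proteins and membrane linkers. Actn4, an actinin of podocytes, was not a member. The rule took 125 rows of 93 genes, out of 10698 different genes named in the table. Of these 93 genes, 61 had a value other than 0 on all 3 arrays in at least 1 row and were tested. The other 32 were not.

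Total kidney RNA was compared on 2-colour arrays. The anti-GBM group held 3 BALB/c mice, numbered 11, 12 and 13, and the control was RNA pooled from 5 normal BALB/c mice. Each anti-GBM mouse had its own array, with its RNA in the Cy5 (red) channel and the control pool in the Cy3 (green) channel. The labels used here state no age, sex, antibody dose or genotype beyond the strain. The antibody binds the filter layer between glomerular capillaries and podocytes and gives an experimental glomerulonephritis.

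The deposited values are log ratios whose base and direction are not stated. Positive values are called higher in the anti-GBM kidneys. This direction is likely, since Cy5 over Cy3 is customary for such arrays and the anti-GBM RNA was labelled with Cy5. With the opposite ratio, every sign would turn. An exact 0 was read as no estimate. Values below are log ratios on the deposited scale after each array's median was subtracted, given as the mean ± SD of n = 3 mice unless single mice are named. A gene was called when its adjusted p in limma's moderated test was under 0.05, with the adjustment over all 7235 genes tested. The pool is 1 control sample, so the spread between control mice is not in the test, and the number of arrays limits the precision. Log ratios hold no level of a transcript, so they cannot check the kidney identity of the RNA. Of 12 kidney tubule markers with a row, 8 were measured on all 3 arrays (66.7%, beside 67.6% of all genes named) and 4 (Lrp2, Umod, Cdh16 and Kap) were listed at 0 on all of them. In RNA of whole kidneys, fewer cells of a type and less RNA per cell cannot be told apart.

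Actin monomers polymerise into filaments whose assembly is started by the Arp2/3 complex and whose length is set by profilins, cofilins, capping proteins and severing proteins. Myosins pull on these filaments, with tropomyosins, calponins, transgelins and filamins bound along them. In the kidney, smooth muscle contractile genes mark arterioles, while mesangial cells and pericytes can also express them. Cytoplasmic actin builds the foot processes of podocytes and the brush border of proximal tubules. Many contractile genes carry a CArG box, the DNA element bound by serum response factor (SRF), near their start.

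Promoters are shown for 4 called members, chosen after their values were seen. Acta2 stands for the smooth muscle genes, Flna and Actn1 for the crosslinkers, and Myl3 is the called member with an exact CArG box. Promoters of Tagln and Myh11 were not used here. The sequences are those of RefSeq on GRCm38.p6, from 250 bases before to 50 bases after the annotated start, written 5′ to 3′ on the gene's strand. Capitals mark a CArG box, searched as its consensus of 10 bases, which reads the same on both strands. In Acta2 and Flna they mark matches with 1 mismatch, in Myl3 the exact match alone, and Actn1 had neither.
Acta2, chr19:34255324-34255623, minus strand: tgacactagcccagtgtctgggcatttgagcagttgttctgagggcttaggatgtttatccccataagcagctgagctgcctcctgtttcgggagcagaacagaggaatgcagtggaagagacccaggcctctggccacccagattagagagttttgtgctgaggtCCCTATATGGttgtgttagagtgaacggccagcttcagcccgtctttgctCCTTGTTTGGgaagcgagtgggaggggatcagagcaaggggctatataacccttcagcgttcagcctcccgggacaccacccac
Flna, chrX:74246485-74246784, minus strand: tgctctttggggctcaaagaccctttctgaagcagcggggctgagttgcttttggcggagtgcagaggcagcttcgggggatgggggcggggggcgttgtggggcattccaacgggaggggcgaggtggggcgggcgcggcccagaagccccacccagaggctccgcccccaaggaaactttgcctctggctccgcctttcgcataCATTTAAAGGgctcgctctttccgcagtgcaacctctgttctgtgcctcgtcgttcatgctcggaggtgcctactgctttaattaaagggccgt
Actn1, chr12:80260314-80260613, minus strand: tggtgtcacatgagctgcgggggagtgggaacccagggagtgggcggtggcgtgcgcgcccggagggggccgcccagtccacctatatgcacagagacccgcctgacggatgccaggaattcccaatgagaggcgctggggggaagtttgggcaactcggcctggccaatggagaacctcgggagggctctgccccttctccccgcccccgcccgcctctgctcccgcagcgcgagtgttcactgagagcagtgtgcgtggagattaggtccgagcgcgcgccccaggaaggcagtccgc
Myl3, chr9:110763428-110763727, plus strand: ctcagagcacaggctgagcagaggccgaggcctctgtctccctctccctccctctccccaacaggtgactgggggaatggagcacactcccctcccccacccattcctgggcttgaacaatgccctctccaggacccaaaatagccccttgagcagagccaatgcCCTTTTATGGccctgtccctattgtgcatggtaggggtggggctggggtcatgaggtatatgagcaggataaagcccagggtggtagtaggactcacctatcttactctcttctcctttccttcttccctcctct

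A promoter was found by symbol for 81 of the 93 members. An exact CArG box was present in 10 of these 81 (12.3%), against 488 of 27025 genes in the promoter table (1.81%). The 10 were Acta1, Actc1, Actg1, Arpc4, Myh4, Myh13, Myl3, Myl6, Myl7 and Vil1. Of the 8 members called higher, 6 had a promoter and 0 of them held an exact match, with Tagln and Myh11 not among these 6. By role, an exact match was present in 6 of 25 striated muscle genes with a promoter (24%) and 0 of 8 smooth muscle genes with a promoter. These 8 are out of 11 smooth muscle genes and leave out Tagln and Myh11. Only the 300 bases of each promoter were searched. Of the 5 called lower, 1 held an exact match, which was Myl3. With 1 mismatch allowed, a setting chosen after the data were seen, 33 of 81 members (40.7%) and 23.8% of all genes had a match. The matches of Acta2 start at positions -84 and -34 from the annotated transcript start, that of Flna at -44 and the exact match of Myl3 at -85. With 1 mismatch allowed Myl3 has another match at -115, which is not in capitals. A match describes these letters only and shows no binding.

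Limma's test called 8 of the 61 measured members higher and 5 lower, and left 48 without a call. The called share was 21.3%, beside 19.4% of all 7235 genes (9.48% higher and 9.97% lower), so the share among members was near the background. The members' median log ratio was 0.07, against -0.001 for all genes, and 38 members were above 0 and 23 below. Members had the same sign in all 3 mice for 40 of 61 genes (65.6%), against 56.5% of all genes. The calls lay at the ends of the range, from Tagln (1.93) to Myh1 (-1.27). Of the 13 called members, 7 kept their call with any 1 mouse left out (53.8%), which was so for 38.2% of all called genes. These were Tagln, Flna, Actn1, Tagln2, Myl4, Myo1f and Myh1. The number of members called lower fell from 5 to 1 without mouse 11, 1 without mouse 12 and 3 without mouse 13. Calls over all genes, in either direction, fell from 1407 to 726, 1005 and 1032 in the same refits, which use 2 arrays each.

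**Figure D1:**
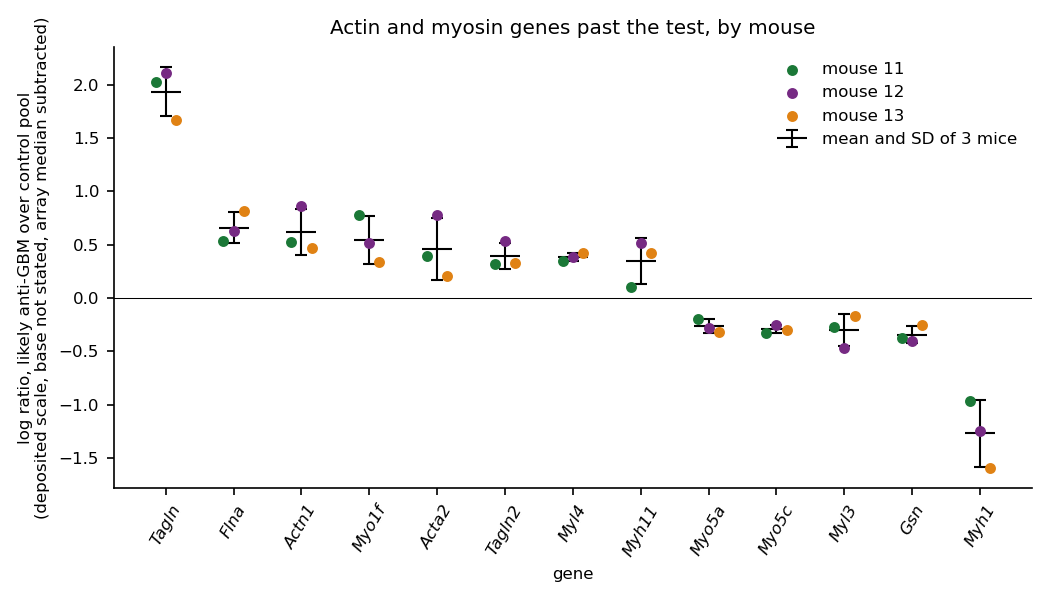
Log ratio (vertical axis, deposited scale, array median subtracted) of the 13 called members in mice 11, 12 and 13, with the mean and SD as bars. Tagln lies above 1.6 in every mouse, Myh1 is the lowest gene in every mouse, and the other called members lie between -0.46 and 0.86.

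The smooth muscle contractile genes were on the higher side. Of 11 with a row, 6 were measured on all arrays. Higher were 3 of them (Tagln, Acta2 and Myh11), and the other 3 were not called, beside 9.48% of all genes called higher. The median of the 6 was 0.25, against -0.001 for all genes, and by mouse it was 0.11, 0.38 and 0.19 in mice 11, 12 and 13. All 6 had the same sign in the 3 mice, 5 above 0 and Mylk below, beside 56.5% of all genes. For Tpm2, Mylk and Smtn this holds for the mean of rows, and each of these genes has a row whose sign differed between mice.

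Tagln encodes transgelin (SM22), an actin-binding protein of smooth muscle. It was at 2.02, 2.11 and 1.67 in mice 11, 12 and 13. All 3 values lie far from 0 and close to each other. The mean of 1.93 ± 0.23 had rank 2 of 7235 genes (limma adjusted p = 0.000105), and corresponds to 3.82-fold if the base is 2 and to 85.8-fold if it is 10. The next highest member, Flna, was at 0.66. Acta2, the smooth muscle α-actin, was at 0.39, 0.78 and 0.20. Mouse 12 was the highest and mouse 13 the lowest, and all were above 0. The mean was 0.46 ± 0.29 (limma adjusted p = 0.0296), and without mouse 12 it was 0.30 (limma adjusted p = 0.0731). Myh11, the smooth muscle myosin heavy chain, was at 0.10, 0.51 and 0.42, so mouse 11 was the lowest. Its mean was 0.35 ± 0.22 (limma adjusted p = 0.0416). Without mouse 12 the call was lost (mean 0.26, limma adjusted p = 0.133), as it was without mouse 13 (mean 0.31, limma adjusted p = 0.112).

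The other smooth muscle genes lay closer to 0. Tpm2, the β-tropomyosin, was at 0.15 ± 0.09 as a mean of rows that differed. The row of higher ratio was at 0.18, 0.50 and 0.37 in mice 11, 12 and 13, which passed the test over 9682 rows (mean 0.35, limma adjusted p = 0.0299). That call ended with 1 mouse left out (highest limma adjusted p = 0.0967). The other row was at 0.07, -0.01 and -0.21. Mylk, the kinase that phosphorylates the myosin light chain to start contraction, was at -0.14 ± 0.04 (limma adjusted p = 0.194). Its rows were at -0.29 ± 0.12 and 0.01 ± 0.14. The lower row was called (limma adjusted p = 0.0441, and up to 0.315 with 1 mouse left out). Smtn, the smoothelin of contractile smooth muscle, was at 0.11 ± 0.06 (limma adjusted p = 0.296), with rows at 0.16 and 0.06. Another row of Smtn, left out of that mean, was deposited at -0.38 and -0.17 in mice 11 and 12 and at 0 in mouse 13. Lmod1, Tpm1 and Smtnl1 were listed at 0 on every array. Myl9 was not analysed here.

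Markers of smooth muscle, pericytes and fibroblasts outside the list are given beside these genes. The counts were 2 higher, 1 lower and 12 not called of 15 measured, with a median of 0.07 (0.08, 0.005 and 0.09 in mice 11, 12 and 13). The called share of these markers was 20%, beside 19.4% of all genes. S100a4, a calcium-binding protein of fibroblasts and leukocytes, was at 0.74 ± 0.35. The fibrillar collagen Col3a1 was at 0.40 ± 0.31, a call lost with 1 mouse left out (highest limma adjusted p = 0.217). The mesenchymal growth factor receptor Pdgfra was at -0.71 ± 0.29. The pericyte genes Rgs5 and Pdgfrb were at -0.13 ± 0.13 and 0.04 ± 0.05, and neither passed. Thy1 was listed at 0 on every array. The part of cell numbers in the values of Tagln, Acta2 and Myh11 was not tested.

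The 2 measured genes of the filamin and actinin group, Flna and Actn1, were both called higher, beside 9.48% of all genes. These are too few to describe a group. Flnc, Actn2 and Actn3, counted with the striated muscle genes, were at 0.21, 0.16 and -0.20 without a call. Of actin genes outside the list, Fscn1, Lcp1 and Pls3 were at -0.23, 0.15 and 0.12 without a call. Actn4 was higher, at 0.40. Flna, the filamin that ties filaments into a network, was at 0.54, 0.63 and 0.82 in mice 11, 12 and 13, with all 3 mice well above 0. The mean was 0.66 ± 0.14 (limma adjusted p = 0.00342). Actn1, the actinin of stress fibres and focal adhesions, was at 0.52, 0.86 and 0.46, with mouse 12 the highest. The mean was 0.62 ± 0.21 (limma adjusted p = 0.00686). With any 1 mouse left out the adjusted p-values of Flna and Actn1 reached at most 0.0108 and 0.0120. Tagln2, the transgelin found outside smooth muscle, was at 0.32, 0.53 and 0.33, and its mean of 0.39 ± 0.12 also passed (limma adjusted p = 0.0157). Tpm3, a tropomyosin of nonmuscle cells and slow muscle, was at -0.03 ± 0.13 (limma adjusted p = 0.782), with rows from -0.11 to 0.10.

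Conventional nonmuscle myosin II, the motor of stress fibres and cell division, had few measured members. The heavy chain Myh9 was at 0.14, 0.33 and 0.28, above 0 in every mouse, and its mean of 0.25 ± 0.10 did not pass (limma adjusted p = 0.0568). With the median of the surrounding rows subtracted, it was at 0.28 and passed (limma adjusted p = 0.0342), which it did under none of the other 11 alternatives. The regulatory light chain Myl12b was at -0.10 ± 0.16 (limma adjusted p = 0.419). Myl12a was listed at 0 throughout and Myh10 was not analysed here.

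**Figure D2:**
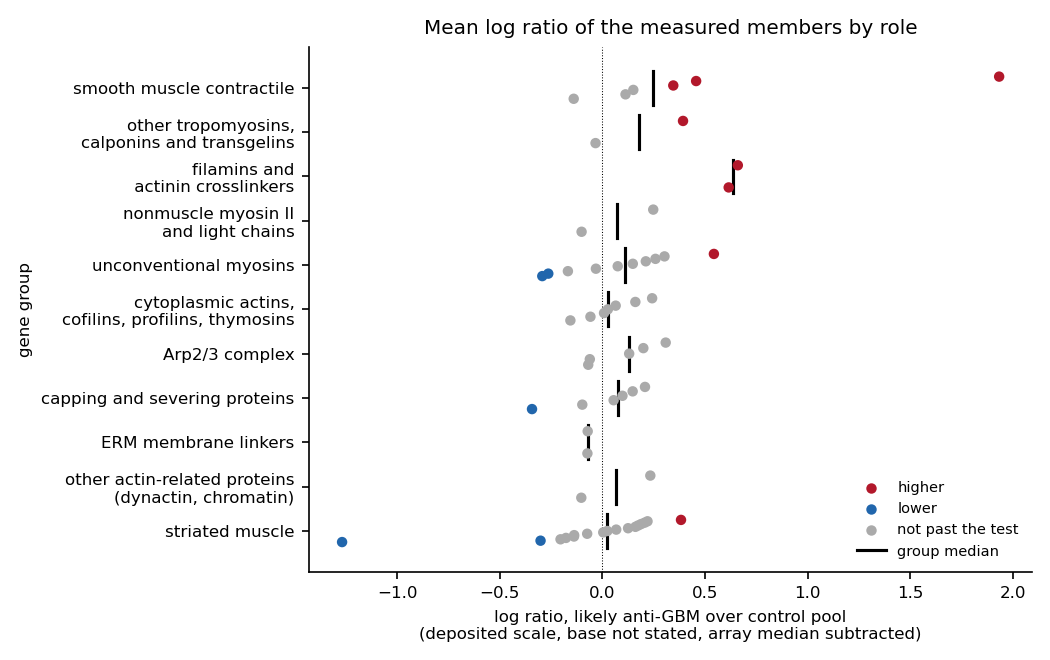
Mean log ratio over 3 mice (horizontal axis) of each of the 61 measured members, grouped by role, with colour for the test's call and a black line at each group's median. The medians run from -0.07 for the membrane linkers to 0.64 for Flna and Actn1, and 6 of the 11 groups hold a called gene.

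Among the unconventional myosins, which carry cargo or link membranes to actin, 1 of 10 measured genes was higher, 2 were lower and 7 had no call. That share of 30% stands beside 19.4% of all genes (9.48% higher and 9.97% lower). The median was 0.11, and 9 of 10 had the same sign in all 3 mice. Myo1f, a class I myosin expressed mainly in leukocytes, was at 0.78, 0.52 and 0.33 in mice 11, 12 and 13. All were above 0, with mouse 13 the lowest. The mean was 0.54 ± 0.22 (limma adjusted p = 0.0109, and at most 0.0287 with 1 mouse left out). Its other row had a value in mouse 12 alone, 0.54 as deposited. Leukocyte markers are given beside it. The counts were 7 higher, 3 lower and 4 not called of 14 measured, with a median of 0.27, 0.13 and 0.09 in mice 11, 12 and 13. The called share of these markers was 71.4%, beside 19.4% of all genes. The called ones with the smallest p were the neutrophil calcium-binding proteins S100a9 (1.42 ± 0.38) and S100a8 (0.56 ± 0.06), the actin regulator of leukocytes Coro1a (0.56 ± 0.13), the macrophage growth factor receptor Csf1r (-0.72 ± 0.33), the integrin Itgb2 (0.44 ± 0.11) and the granule protein Ltf (-0.39 ± 0.05). The pan-leukocyte gene Ptprc was at 0.10 ± 0.06 and did not pass, and Cd79b was listed at 0 on every array. The part of leukocytes in the value of Myo1f was not tested.

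The class V myosins, which move vesicles along actin, did not share a direction. Myo5c, found in epithelia, was at -0.33, -0.25 and -0.30, with the mice close together. Its mean was -0.29 ± 0.04 (limma adjusted p = 0.0282). Myo5a was at -0.19, -0.28 and -0.32, a mean of -0.26 ± 0.06 (limma adjusted p = 0.0408). Both calls ended when any 1 mouse was left out, with adjusted p-values up to 0.167 for Myo5c and 0.131 for Myo5a. Of the rows of Myo5a, 1 lies near 6 rows with a mean below -1 and among rows with a mean local median of -0.13. With the local median subtracted, Myo5a was at -0.22 (limma adjusted p = 0.0678). Myo5b, a motor of apical recycling vesicles, was at 0.52, 0.10 and 0.30 and did not pass (mean 0.30 ± 0.21, limma adjusted p = 0.0589). Without mouse 12 it was at 0.41 and passed (limma adjusted p = 0.0287), while without mouse 11 it was at 0.20 (limma adjusted p = 0.358). Myo7a, a motor of stereocilia and microvilli, was at 0.26 ± 0.17 (limma adjusted p = 0.0721). Without mouse 12 it was at 0.35 (limma adjusted p = 0.0362) and without mouse 11 at 0.20 (limma adjusted p = 0.365). Myo10 of filopodia was at 0.21 ± 0.18 and Myo6, which moves towards the minus end of filaments, at -0.03 ± 0.10. Neither passed.

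The genes that supply and assemble actin were mostly not called. Of 7 measured actins, cofilins, profilins and thymosins, 0 passed limma's test, beside 19.4% of all genes. An unadjusted p under 0.05 was reached by 1 of them, beside 2602 of all 7235 genes. With so few genes, 0 calls cannot be told apart from the share of all genes. The group's median was 0.03. The thymosin Tmsb4x, which holds actin monomers in reserve, came closest. It was at 0.24 ± 0.05 (limma adjusted p = 0.0507) as the mean of 3 rows. These were at 0.40 ± 0.08, 0.27 ± 0.08 and 0.05 ± 0.01, the first 2 of them called at row level. Its call depended on the setting. It passed without the crowded stretches of low rows (limma adjusted p = 0.0497), with no centring (0.0448), with the arrays scaled to equal spread (0.0485) and with the local median subtracted (0.0322). It did not pass with the row of smallest SD (0.05, limma adjusted p = 0.598), with 2 arrays enough (0.0661) or with 1 mouse left out (0.0787 to 0.305). Its relative Tmsb10 was at 0.16 ± 0.07 (limma adjusted p = 0.154), with rows at 0.32 and -0.001. The profilins Pfn1 and Pfn2, which feed monomers to growing ends, were at 0.06 ± 0.08 and 0.01 ± 0.15. The muscle cofilin Cfl2 was at -0.16 ± 0.20, in a stretch where 18 rows within 100 row numbers have a mean below -1. The cytoplasmic actins Actb and Actg1, often taken as constant references, had no row measured on all 3 arrays. Actb was listed at -0.06 and 0.23 in mice 11 and 12 and at 0 in mouse 13. Actg1 had values in mouse 11 alone, 0.47 and 0.76 from different rows.

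The Arp2/3 complex, which nucleates branched filaments, had 0 of 5 measured subunits called by limma, beside 19.4% of all genes. An unadjusted p under 0.05 was found for 1 subunit, beside 2602 of all 7235 genes. This group is also too small to tell 0 calls from the share of all genes. The median was 0.13. Arpc5 was at 0.35, 0.07 and 0.51, with mouse 12 near 0, and its mean of 0.31 ± 0.22 did not pass (limma adjusted p = 0.0605). Without mouse 12 it was at 0.43 (limma adjusted p = 0.0205), without mouse 11 at 0.29 (limma adjusted p = 0.178) and without mouse 13 at 0.21 (limma adjusted p = 0.185). Subtracting the median of the surrounding rows gave 0.29 (limma adjusted p = 0.0411). Actr3, which forms the nucleating core with Actr2, was at 0.20 ± 0.21 (limma adjusted p = 0.166). Arpc1b had rows that went opposite ways. Its higher row was at 0.42, 0.65 and 0.40 (mean 0.49 ± 0.14, limma adjusted p = 0.00854), and its lower row at -0.31, -0.29 and -0.09 (mean -0.23 ± 0.12, limma adjusted p = 0.0852). The gene's mean of 0.13 ± 0.07 therefore describes neither row. Among the more distant actin-related proteins, Actr1a of the dynactin complex was at 0.23 ± 0.08 (limma adjusted p = 0.0615) and Actr8 of chromatin remodelling at -0.10 ± 0.16.

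Gelsolin (Gsn), which severs and caps filaments, was lower. It was the only gene called of 6 measured capping and severing proteins, beside 19.4% of all genes. It was at -0.38, -0.40 and -0.25 in mice 11, 12 and 13, below 0 in every mouse. The mean was -0.34 ± 0.08 (limma adjusted p = 0.0201), and the call ended without mouse 11 (limma adjusted p = 0.101) or mouse 12 (limma adjusted p = 0.0573). The capping subunits Capza2 (0.21 ± 0.13), Capza1 (0.15 ± 0.26) and Capzb (0.05 ± 0.02) did not pass. Vil1, the villin of brush border microvilli, was at -0.10 ± 0.11 and Capg, a capping protein of macrophages, at 0.10 ± 0.12, also not passing. Of the linkers between actin and the membrane, Msn was at -0.07 ± 0.12 and Rdx at -0.07 ± 0.15, without a call. Ezr, the ezrin of podocytes and brush border, had a value in mouse 12 alone, 0.13.

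The striated muscle genes, taken apart from the smooth muscle ones, had 1 higher, 2 lower and 14 not past the test of 17 measured, out of 29 with a row. The called share was 17.6%, beside 19.4% of all genes, and the median was 0.02. Myh1, a fast skeletal myosin heavy chain, was at -0.96, -1.25 and -1.59 in mice 11, 12 and 13. All 3 mice lay far below 0. The mean of -1.27 ± 0.32 (limma adjusted p = 0.00105) was the lowest of the members and had rank 24 from below among all genes. It corresponds to 2.41-fold lower if the base is 2 and 18.6-fold lower if it is 10. Its row has 0 rows with a mean below -1 within 100 row numbers, and with the local median subtracted it stayed at -1.28. The related fast chain Myh4 was at 0.13 ± 0.15 and did not pass, while Myh2 was listed at 0 in mice 11 and 13. The heavy chains lie close in sequence, so a probe of 1 can bind transcripts of another.

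The light chains of striated muscle went both ways. Myl4, the atrial and embryonic essential light chain, was at 0.35, 0.38 and 0.42, with little spread between mice. Its mean was 0.38 ± 0.04 (limma adjusted p = 0.0119). Myl3, the ventricular and slow-muscle light chain, was at -0.28, -0.46 and -0.16, a mean of -0.30 ± 0.15 (limma adjusted p = 0.0416). Its row lies near 20 rows with a mean below -1, in a stretch with a mean local median of -0.14. With that median subtracted Myl3 was at -0.15 and did not pass (limma adjusted p = 0.213). Its call also ended without mouse 11 (limma adjusted p = 0.122) or mouse 12 (limma adjusted p = 0.149). The ventricular regulatory chain Myl2 was at 0.22 ± 0.16 and did not pass. The measured troponins, the calcium switch of striated filaments, ranged from -0.18 for Tnni3 to 0.19 for Tnnc1. None of these 6 (Tnnc1, Tnnc2, Tnni2, Tnni3, Tnnt1 and Tnnt3) was called, beside 19.4% of all genes. So few genes cannot tell the lack of calls apart from that share. At an unadjusted p under 0.05, 6 of the 17 striated genes passed limma's test, beside 2602 of all 7235 genes.

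Skeletal and cardiac muscle markers outside the list are given beside Myh1. The counts were 0 higher, 2 lower and 15 not called of 17 measured, with a median of 0.12. The called share of these markers was 11.8%, beside 19.4% of all genes. The medians by mouse were -0.03, 0.04 and -0.01 in mice 11, 12 and 13. The lower ones were Pvalb, a calcium buffer of fast muscle that distal tubules also express, at -0.50, -0.84 and -0.97 (mean -0.77 ± 0.24), and Myoz1, a fast-muscle Z-disc protein, at -0.37 ± 0.23. The call of Myoz1 ended with 1 mouse left out (highest limma adjusted p = 0.0961). The creatine kinase Ckm was at 0.23 ± 0.14 and titin (Ttn) at 0.14 ± 0.07, without a call. Neb, Myf5, Nppa and Pln were listed at 0 on every array. The part of muscle tissue in the value of Myh1 was not tested.

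**Figure D3:**
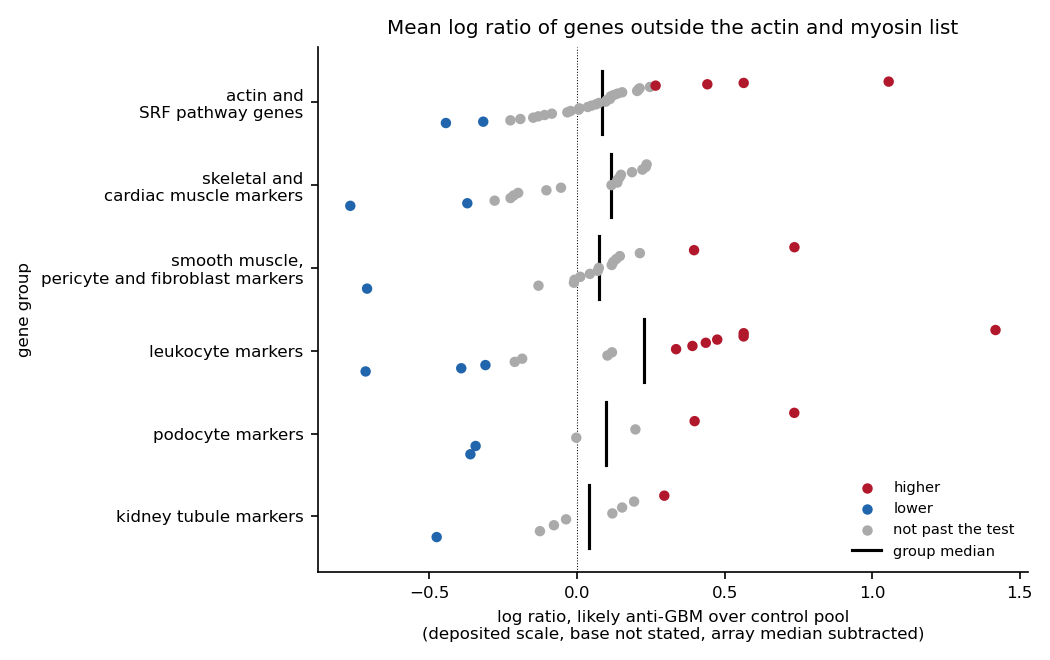
Mean log ratio over 3 mice (horizontal axis) of genes outside the actin and myosin list, by list, with colour for the test's call and a black line at each list's median. The medians lie between 0.04 for kidney tubule markers and 0.23 for leukocyte markers, and each list except the skeletal and cardiac muscle markers has called genes on both sides of 0.

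The wider pathway around actin and SRF was called about as often as all genes. The counts were 4 higher, 2 lower and 26 not called of 32 measured, a share of 18.8% beside 19.4% of all genes. The median was 0.09. Ccn1, a matrix protein and SRF target, was at 0.93, 1.23 and 1.00 in mice 11, 12 and 13 (mean 1.06 ± 0.15, limma adjusted p = 0.000475). Its row has 4 rows with a mean below -1 within 100 row numbers. Coro1a was at 0.56 ± 0.13, and Cap2, a cyclase-associated protein that recycles actin monomers, at 0.44 ± 0.19. Twf1, a twinfilin that binds monomers, was at 0.27 ± 0.02, a call lost with 1 mouse left out (highest limma adjusted p = 0.207). Fhl1, a LIM protein of muscle, was at -0.44 ± 0.06, and the GTPase Rhob at -0.32 ± 0.16 also lost its call (highest limma adjusted p = 0.107). Srf itself was at -0.37, 0.32 and -0.02, so the mice lay on both sides of 0 (mean -0.02 ± 0.35, limma adjusted p = 0.91). Rhoa and Rock1, which switch on contraction and stress fibres, were at 0.04 ± 0.06 and 0.10 ± 0.19 without a call. Ppp1r12b, Diaph3, Csrp2 and Coro1c were listed at 0 on every array.

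Podocyte markers, whose cells depend on actin, were called in both directions. The counts were 2 higher, 2 lower and 2 not called of 6 measured (median 0.10), a called share of 66.7% beside 19.4% of all genes. Nes was at 0.74 ± 0.09, Actn4 at 0.40 ± 0.10, Lmx1b at -0.34 ± 0.12 and Nphs1 at -0.36 ± 0.21. Lmx1b and Nphs1 lost their calls with 1 mouse left out (highest limma adjusted p = 0.134 and 0.191). Synpo and Podxl, which bind or anchor actin in podocytes, were listed at 0 on every array. Kidney tubule markers had 1 of 8 higher and 1 lower, a called share of 25% beside 19.4% of all genes. The higher one was Slc22a6 (0.30 ± 0.03, highest limma adjusted p = 0.113 with 1 mouse left out) and the lower one Calb1 (-0.48 ± 0.09). The other 6 were not past the test, and the median was 0.04.

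Rows of the same member often disagreed. In the fit of single rows, 19 of 76 member rows (25%) were called, 13 higher and 6 lower, beside 19.6% of all 9682 rows (9.55% higher and 10.1% lower). Without mouse 11, 11 member rows were called, and calls over all rows fell from 1902 to 944. Of the 19, 6 belonged to 5 genes that were not called after averaging, namely Arpc1b, Mylk, Tmsb10, Tmsb4x and Tpm2. There were 13 members with several measured rows, 28 rows in all. In 9 of these 13 (69.2%) the rows lay on both sides of 0, against 43.2% of the 1103 genes with several rows in the table. The median gap between the lowest and highest row was 0.26 for members and 0.17 for all such genes, and the widest among members was that of Arpc1b (0.72). No member had 1 row called higher and another called lower, which was rare over all genes with several rows (10 of 1103). Rows of a gene share its name and not necessarily the stretch of transcript they detect.

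**Figure D4:**
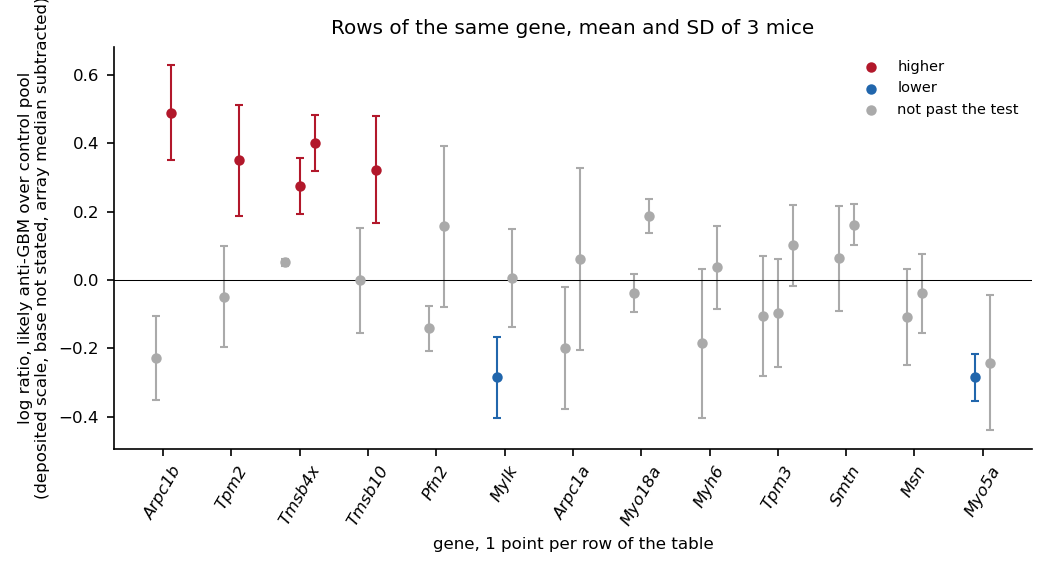
Mean and SD over 3 mice (vertical axis, log ratio) of each row of the 13 members that have several measured rows, ordered by the gap between rows, with colour for the row's call. Rows of Arpc1b lie at 0.49 and -0.23 at the left, and those of Msn and Myo5a at the right differ by less than 0.07.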

How the data were processed

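The authors' deposited table holds 1 log ratio per row and array. How they were scanned, corrected and normalized, and the log base, is not stated in the sources used. No deposited intensity was used. The platform annotation named the rows, and the gene numbers of all 125 member rows were found in RefSeq (GRCm38.p6). Of 16281 rows, 9682 had a value other than 0 on all 3 arrays. The medians over values other than 0 were 0.0077, 0.0105 and 0.01 in mice 11, 12 and 13, and each was subtracted. Rows of 1 gene were averaged, and the mean was tested against 0 with limma 3.58.1 (lmFit and eBayes) in R 4.3.3 over all 7235 genes, with Benjamini-Hochberg adjustment. The fit was tested on simulated data, where it called 67 of 100 genes shifted by 0.5 and 3 of 100 shifted by 0.25. Of the 7035 genes left unshifted, 5 were called. The simulated arrays were independent, without error shared through the control pool or the dye orientation. Those 5 therefore do not measure false calls in the real arrays. Fewer genes were called in the simulation than in these data, so the threshold on p was stricter. A missing call does not show an absent change. Tables and figures were made with Python 3.11.15, pandas 2.3.3 and matplotlib 3.10.9.

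Members and lists were chosen with earlier results of these data known. Named were all called members of 1 sign in every mouse, the 2 with the smallest p in each role group, 14 preset genes, and up to 6 called genes of each other list. Other genes named, such as the members Pfn1, Myo7a and Myo10 and the list genes Ckm and Rhoa, were chosen after their values were seen. Alternatives were no centring, equal spread, zeros kept, 2 arrays enough, 1 row per gene (smallest SD), the local median over 201 rows subtracted, crowded low stretches left out (rows with a mean below -1 and at least 3 such others within 100 row numbers), other moderation and each mouse left out.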

Additional observations from a re-analysis of the deposited data

How the results depend on the processing

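The named members were refitted under 12 alternatives, which gave 312 values for 26 genes. Of these, 256 kept direction and side of the threshold, 44 lost a call, 9 gained one and 3 changed sign. The sign changes were of uncalled genes, Tmsb10 with 1 row per gene (-0.0014) and Tpm3 with 1 row per gene (0.102), while Tpm3 ranged from -0.105 without mouse 12 to 0.0185 without mouse 13. With exact zeros kept as values, 0 members were called higher, 0 lower and 0 member rows were called. With no moderation of the variances these counts were also 0, 0 and 0, and over all genes 31 and 3 were then called, against 1407. With the local median subtracted 3 members were lower and 11 were higher, and over all genes 1569 were called, against 1407. With 1 mouse left out, 7 to 9 members were higher, 1 to 3 were lower and 11 to 13 rows were called. Over all genes, 726 to 1032 were called with 2 arrays each, and over all rows 944 to 1445. With values on 2 arrays enough, Myh11, Myl3 and Myo5a lost their calls (limma adjusted p = 0.055, 0.0551 and 0.0544), and Myl6 (0.40, n = 2) and Cnn3 (-0.39, n = 2) passed. Allowing 1 mismatch in the CArG box raised the members with a match from 10 to 33. No paired analysis was possible because there is 1 group of mice and 1 control pool. Of the 76 member rows tested, 8 had at least 3 rows with a mean below -1 within 100 row numbers. Row lowness there, the single pool and the single dye orientation limit the values, and signal over background was not used here.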

Other observations

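Of the 32 members not tested, 13 were listed at 0 on every array and 19 had values on 1 or 2 arrays. These values are given as deposited, with no test. Cnn1, the calponin of smooth muscle, had a value in mouse 13 alone, 0.81, which is above the value of Acta2 in that mouse. Cnn3, a calponin of nonmuscle cells, was at -0.44 and -0.32 in mice 11 and 12. Actg2, the smooth muscle γ-actin, was at -0.04 and 0.14 in mice 11 and 13, on both sides of 0. Myl6, the essential light chain of smooth and nonmuscle myosin, was at 0.42 and 0.40 in mice 12 and 13, close together. Cfl1, the nonmuscle cofilin, was at 0.14 and 0.22 in the same mice. The skeletal actin Acta1 had 1 value, 0.41 in mouse 11, and the cardiac troponin Tnnt2 had 1 value, 0.56 in mouse 12.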
